A study of Homo sapiens with 16 samples.

Results

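The 10 transcripts described here encode matricellular proteins and were taken from the deposited table by their symbols: TNC, TNXB, THBS1, THBS2, THBS3, POSTN, SPARC, CCN1, CCN2 and SPP1. All 10 were found among its 40663 symbols, and together they held between 0.48% and 0.73% of the estimated counts of a library. Matricellular proteins are secreted into the extracellular matrix but serve less as structural fibers than as signals. They bind integrins, syndecans, collagens and growth factors, and so tune adhesion, migration and TGF-beta activity. Tenascin C is known for appearing in wounds and in inflamed or fibrotic tissue, where it can also engage the innate receptor TLR4.

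The 16 libraries, in 4 groups of 4, come from Ccd18-Co, an established line of human colon fibroblasts. Unstimulated cells (replicates 1 to 4) received no cytokines and, by their titles, DMSO. The other groups received repeated pulses of a cocktail that held IL-1B at 0.1 ng/ml and 10 ng/ml of each of TNF, OSM and IL-17A, 72 h per pulse followed by 96 h of recovery, and rested for 1 week. They were then given for 5 days DMSO (vehicle, replicates 13 to 16), belinostat at 250 nM, an inhibitor of histone deacetylases (replicates 17 to 20), or GSK-J4 at 10 µM, an inhibitor of demethylases of lysine 27 of histone H3 (replicates 21 to 24). RNA was collected 2 weeks after the compounds. Doses are those of the labels, and the study's text also gives other concentrations of IL-1B and of the compounds. All groups are thus the same established line grown on plastic, and the labels do not say whether replicates came from separate cultures of separate days, so p-values measure the spread between these samples, which may be technical.

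The libraries held 14.4 to 19.5 M estimated counts. All 12 fibroblast markers checked had counts, with sums of 468700 to 608300 normalized counts per library (estimated counts divided by the library's size factor). Markers of other cells were low, with sums of 1.92 to 18.7 over 6 epithelial genes, of which 2 had no count in any library, 26.1 to 52.4 over 6 endothelial genes, 6.71 to 26.9 over 4 glial genes and 278 to 736 over 8 leukocyte genes, where CD68 and CD14 held most. Smooth muscle markers, which myofibroblasts share, were higher in every GSK-J4 library (sums of 52370 to 54100 over 6 genes) than in unstimulated (30100 to 44220), vehicle (33460 to 39910) or belinostat libraries (26160 to 31870). Belinostat replicate 17 stood apart from the rest of its group, at -12.98 on the second principal component where the other belinostat libraries lay between -1.42 and 0.78. Values printed for the members that change call or direction, or move by over 1.5 times, without it are given both ways.

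Sequence before the transcription start is shown for 4 members, CCN2, THBS2, TNC and TNXB, and not for the others, POSTN among them. It is taken from RefSeq's start sites (GRCh38.p14), 5′ to 3′ on the strand of the gene. Of each window of 250 bases, only the longest stretch outside the gene's exons in the GENCODE annotation is printed. For THBS2, TNC and TNXB this stretch stops short of the start, and for THBS2 and TNXB it lies within the annotated gene. Capitals mark the letters GGAATG or their reverse complement CATTCC, the core motif read by TEAD factors, the DNA-binding partners of YAP and TAZ.
CCN2 (chr6:131951373-131951622, minus strand, the 250 bases before the start): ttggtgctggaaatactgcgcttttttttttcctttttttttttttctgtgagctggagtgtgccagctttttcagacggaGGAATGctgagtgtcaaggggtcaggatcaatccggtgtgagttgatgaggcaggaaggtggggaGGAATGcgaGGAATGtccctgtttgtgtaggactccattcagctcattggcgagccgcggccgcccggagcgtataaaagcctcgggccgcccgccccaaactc
THBS2 (chr6:169253897-169253989, minus strand, 93 of the 250 bases): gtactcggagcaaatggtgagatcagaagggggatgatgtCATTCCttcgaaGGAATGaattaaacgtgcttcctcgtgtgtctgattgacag
TNC (chr9:115118208-115118407, minus strand, 200 of the 250 bases): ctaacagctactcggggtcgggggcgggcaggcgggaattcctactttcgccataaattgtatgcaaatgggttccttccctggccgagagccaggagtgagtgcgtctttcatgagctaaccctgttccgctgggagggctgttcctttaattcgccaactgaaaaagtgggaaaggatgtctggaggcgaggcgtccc
TNXB (chr6:32109375-32109588, minus strand, 214 of the 250 bases before the first of 2 listed starts): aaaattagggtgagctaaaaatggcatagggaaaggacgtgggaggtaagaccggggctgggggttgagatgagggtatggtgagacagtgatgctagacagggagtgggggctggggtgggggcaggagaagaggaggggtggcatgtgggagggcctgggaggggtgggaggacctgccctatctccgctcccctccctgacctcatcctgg

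In the full 250 bases, searched on both strands, GGAATG occurred 3 times before the start of CCN2, 2 times before THBS2, as an inverted pair, and 1 time each before THBS1, SPARC and the second start of TNXB. It did not occur before TNC, THBS3, POSTN, SPP1 or the first start of TNXB. Of 35116 listed human promoters, 11.9% held it at least 1 time, 0.94% at least 2 times and 0.0826% at least 3 times. The TATA box letters TATAAA, found before 10.7% of starts, were present before CCN2, THBS2 and POSTN. The GC box GGGCGG, found before 42.6%, was present before TNC, THBS1, both starts of THBS3 and CCN2, and the AP-1 letters TGANTCA, found before 6.57%, before POSTN. The motifs overlapped nowhere in these windows except for GC boxes with each other before CCN2. These are matches of letters and not measured binding. CCN1 was not among the listed promoters.

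Levels between genes were compared per kilobase of merged exons, a description with no test. In unstimulated cells the order was SPARC at 9690 ± 357 normalized counts per kb (SD, n = 4), THBS1 at 6060 ± 652, CCN2 at 1480 ± 189, CCN1 at 1420 ± 93.1, THBS2 at 528 ± 104, TNC at 349 ± 56.9, THBS3 at 207 ± 13.8, TNXB at 47.6 ± 15.2, POSTN at 5.79 ± 1.36 and SPP1 at 0.291 ± 0.344. Only CCN2 and CCN1 lay within 1 SD of each other. SPARC, a collagen-binding glycoprotein, and thrombospondin 1, an activator of latent TGF-beta, were thus the abundant members, while periostin, a matrix protein much used as a marker of activated fibroblasts, was scarce. The length of merged exons overstates that of the transcripts in use, so levels per kb are rough.

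**Figure D1:**
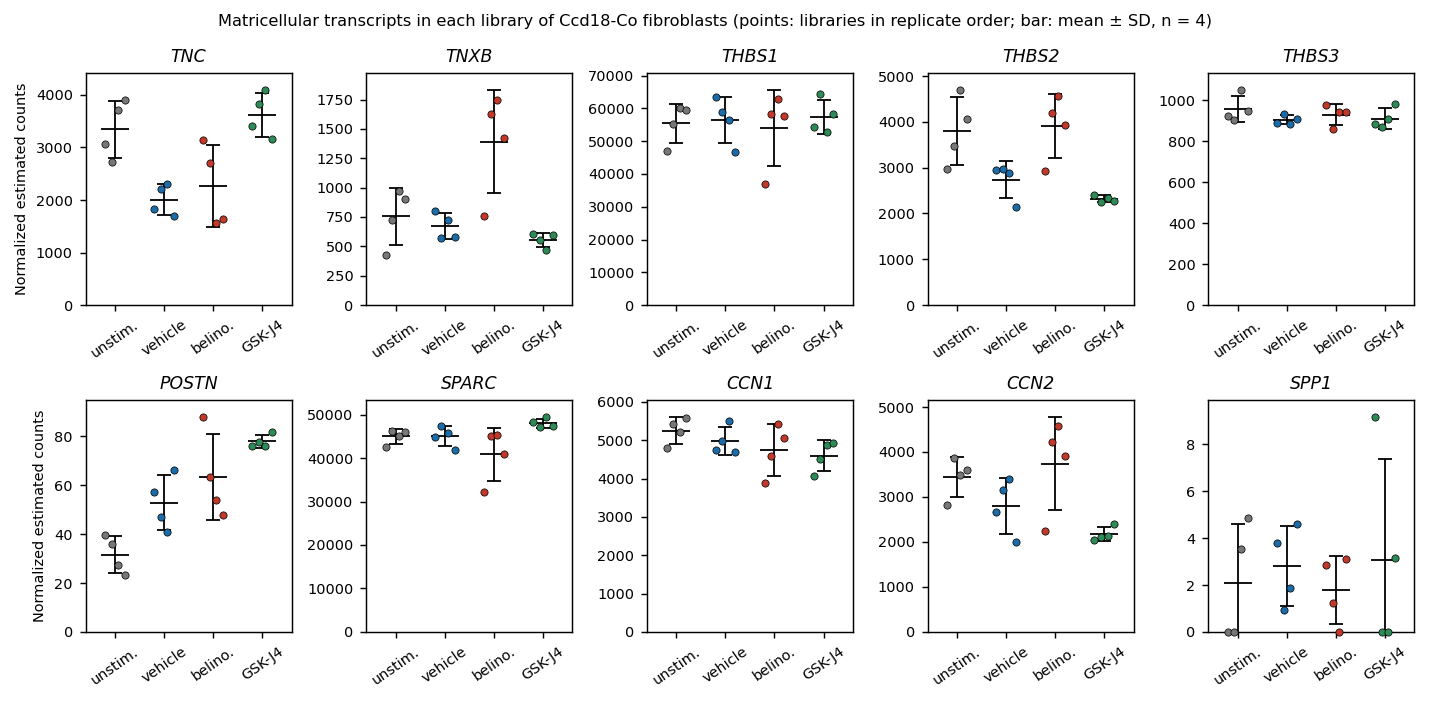
Normalized estimated counts (vertical axes, from 0) of each transcript in the 16 libraries by group, with points in replicate order and bars at mean ± SD (n = 4). TNC was low in all vehicle libraries and high in all GSK-J4 libraries, TNXB, THBS2 and CCN2 were high in belinostat replicates 18 to 20, and SPP1 stayed under 10 counts throughout.

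The first comparison, vehicle against unstimulated cells, asked what the cytokine pulses had left after weeks without cytokines. Of the 9 members tested, TNC and THBS2 were called lower in vehicle and none higher (DESeq2 adjusted p under 0.05), where 1.74% of all 16240 genes tested were called. The libraries of the groups did not overlap for 2 members, TNC and POSTN, where 6.93% of all genes had no overlap. The median log2 fold change was -0.08 over the members and -0.005 over all genes. In bulk RNA, fewer cells of a type and less RNA per cell cannot be told apart, here and below.

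The tenascins are large glycoproteins of the matrix. TNC (ENSG00000041982.17, GENCODE on GRCh38, chromosome 9, 115019575 to 115118207, minus strand, 33 merged exons) encodes tenascin C. The paper names myofibroblasts of fibrotic areas by it, and reports less of the secreted protein after belinostat in cytokine-polarized cells. Its text gives a higher belinostat concentration than the labels. RNA was measured here, and protein was not. TNC RNA stood at 3057, 2733, 3707 and 3896 normalized counts in unstimulated replicates 1 to 4 and at 1820, 2206, 2301 and 1696 in vehicle replicates 13 to 16. Every vehicle library lay below every unstimulated one. The means were 2006 ± 293 and 3348 ± 545 (SD, n = 4), a log2 fold change of -0.74 (DESeq2 adjusted p 0.0411, SE 0.217). Over 12 other fits the change stayed between -0.82 and -0.66, while the range of its adjusted p was 1.31e-06 to 0.223. It was no longer called under edgeR (-0.75), nor when unstimulated replicate 1 (-0.78), 3 (-0.69) or 4 (-0.66) was left out, nor without any vehicle library (replicate 13 at -0.69, 14 at -0.79, 15 at -0.81, 16 at -0.67), so the size was stable and the call was not.

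Under GSK-J4 TNC rose against vehicle. Its values were 3402, 3828, 4087 and 3159 in replicates 21 to 24, all above every vehicle library and within or just above the unstimulated range. The mean of 3619 ± 417 (SD, n = 4) was 0.85 above vehicle on the log2 scale (DESeq2 adjusted p 0.00921, SE 0.217). Against unstimulated cells the difference was 0.11, with a 95% interval of -0.31 to 0.54. TNC was the only member called between GSK-J4 and vehicle, 1 of 9 tested, where 1.92% of all genes were called, and 2 members, TNC and POSTN, had no overlap, against 10.0% of all genes. The members' median log2 fold change was 0.009, beside -0.002 over all genes. The call also held under edgeR. Leaving out vehicle replicate 13 (0.81) or 16 (0.78) ended it, as did leaving out GSK-J4 replicate 22 (0.82) or 23 (0.79). Its adjusted p lay between 3.03e-14 and 0.079 in the 12 other fits. The smooth muscle markers were also higher in each GSK-J4 library than in each vehicle library, and their part in the TNC result was not tested.

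Belinostat libraries split for TNC. Replicates 17 and 18 held 3140 and 2713 normalized counts, in or near the unstimulated range, and replicates 19 and 20 held 1568 and 1638, below all vehicle libraries. The mean of 2265 ± 784 (SD, n = 4) therefore carried the largest spread of the 4 groups, and the log2 fold change against vehicle was 0.17 (SE 0.217, 95% interval -0.25 to 0.60, DESeq2 adjusted p 0.808). Without replicate 17 it was -0.024. Directly between the compounds TNC was lower under belinostat by -0.68 on the log2 scale (SE 0.217, adjusted p 0.0196), with no overlap of the libraries. This call was lost in a fit of only these 2 groups (-0.68) and without belinostat replicate 20 (-0.55) or GSK-J4 replicate 22 (-0.65) or 23 (-0.61). Without belinostat replicate 17, TNC was also called lower under belinostat than in unstimulated cells (-0.76, adjusted p 0.00493), where all 16 libraries gave -0.56 (adjusted p 0.0775).

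TNXB (ENSG00000168477.21, chromosome 6, 32041153 to 32115334, minus strand) encodes tenascin X, which organizes collagen and whose loss is known as a cause of a form of Ehlers-Danlos syndrome. It held 428, 726, 969 and 907 normalized counts in unstimulated replicates and 800, 572, 723 and 582 in vehicle replicates, groups that overlapped (log2 fold change -0.18, 95% interval -0.72 to 0.36). Under belinostat the values were 761, 1628, 1743 and 1422. Replicates 18 to 20 lay above every library of the other groups, and replicate 17 lay among the vehicle libraries. TNXB was 1.05 higher under belinostat than in vehicle on the log2 scale (DESeq2 adjusted p 0.00385, SE 0.274), the largest change of any member between these groups, and the call held under all 12 other fits, with changes of 0.92 to 1.26.

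GSK-J4 libraries held 601, 558, 467 and 596 normalized counts of TNXB, below every belinostat library. Between the compounds TNXB differed by 1.32 on the log2 scale (DESeq2 adjusted p 4.2e-05, SE 0.274), again under all 12 other fits. Its rise against unstimulated cells (0.87, SE 0.274, adjusted p 0.0192) was less firm. That call was lost in a fit of only these 2 groups (0.87) and without unstimulated replicate 1 (0.68) or 2 (0.85) or belinostat replicate 18 (0.79), 19 (0.74) or 20 (0.86). TNXB has a near-identical pseudogene, TNXA, and its exons share 71 bases with ATF6B on the same strand and 298 with CYP21A2 on the other, so its estimated counts carry an uncertainty that the SE does not hold.

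Thrombospondins 1 and 2 bind CD36, CD47, integrins and syndecans, and limit the growth of vessels. THBS2 (ENSG00000186340.17, chromosome 6, 169215780 to 169254050, minus strand), which encodes thrombospondin 2, held 2963, 3478, 4689 and 4073 normalized counts in unstimulated libraries and 2958, 2977, 2893 and 2139 in vehicle libraries. Only unstimulated replicate 1 reached down into the vehicle range. The means were 3801 ± 746 and 2742 ± 403 (SD, n = 4), a change of -0.47 on the log2 scale (DESeq2 adjusted p 0.048, SE 0.141). Like that of TNC, this call was lost under edgeR (-0.48). Leaving out unstimulated replicate 2 (-0.51), 3 (-0.35) or 4 (-0.44) also ended it, as did leaving out any vehicle library (replicate 13 at -0.51, 14 at -0.51, 15 at -0.50, 16 at -0.37). In the 12 other fits the adjusted p lay between 0.00404 and 0.28.

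THBS2 lay at opposite ends of its range under the 2 compounds. Belinostat libraries held 2938, 4196, 4567 and 3923 normalized counts and GSK-J4 libraries 2412, 2251, 2348 and 2279, with no overlap. Between them the change was 0.75 on the log2 scale (DESeq2 adjusted p 4.01e-06, SE 0.141), called under all 12 other fits. Against vehicle THBS2 rose under belinostat by 0.51 (SE 0.141, adjusted p 0.00791), a call lost without vehicle replicate 16 (0.41) or belinostat replicate 19 (0.43), while under GSK-J4 the change was -0.24 (95% interval -0.52 to 0.04, adjusted p 0.617). The GSK-J4 mean of 2322 ± 72.3 (SD, n = 4) lay below unstimulated cells by -0.71 on the log2 scale (SE 0.141, adjusted p 4.16e-05), under all 12 other fits and with no overlap. The antisense gene THBS2-AS1 shares 2249 exon bases with THBS2 and averaged 18.3 estimated counts, and strand was not stated to be used in the counting.

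THBS1 (ENSG00000137801.11, chromosome 15, 39581079 to 39599466, plus strand) and THBS3 (ENSG00000169231.13, chromosome 1, 155195588 to 155209051, minus strand) were called in none of the 6 contrasts, by DESeq2 or edgeR, and no unadjusted p of theirs was under 0.05. THBS1 averaged between 53910 and 57440 normalized counts in the 4 groups. Its libraries ran from 36911, in belinostat replicate 17, to 64277, in GSK-J4 replicate 22. The log2 fold change was -0.07 for belinostat (95% interval -0.33 to 0.20) and 0.03 for GSK-J4 (95% interval -0.24 to 0.29), each against vehicle, and 0.079 for belinostat without replicate 17. Against GSK-J4 it was -0.09 for belinostat and 0.053 without that replicate. THBS3 was the steadiest member, with libraries between 858 and 1047 normalized counts, and changes of 0.04 (95% interval -0.08 to 0.16) and 0.01 (95% interval -0.11 to 0.13), the former 0.018 without belinostat replicate 17. Reads of THBS3 cannot be told apart from those of MTX1, on the other strand, over 146 shared exon bases.

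**Figure D2:**
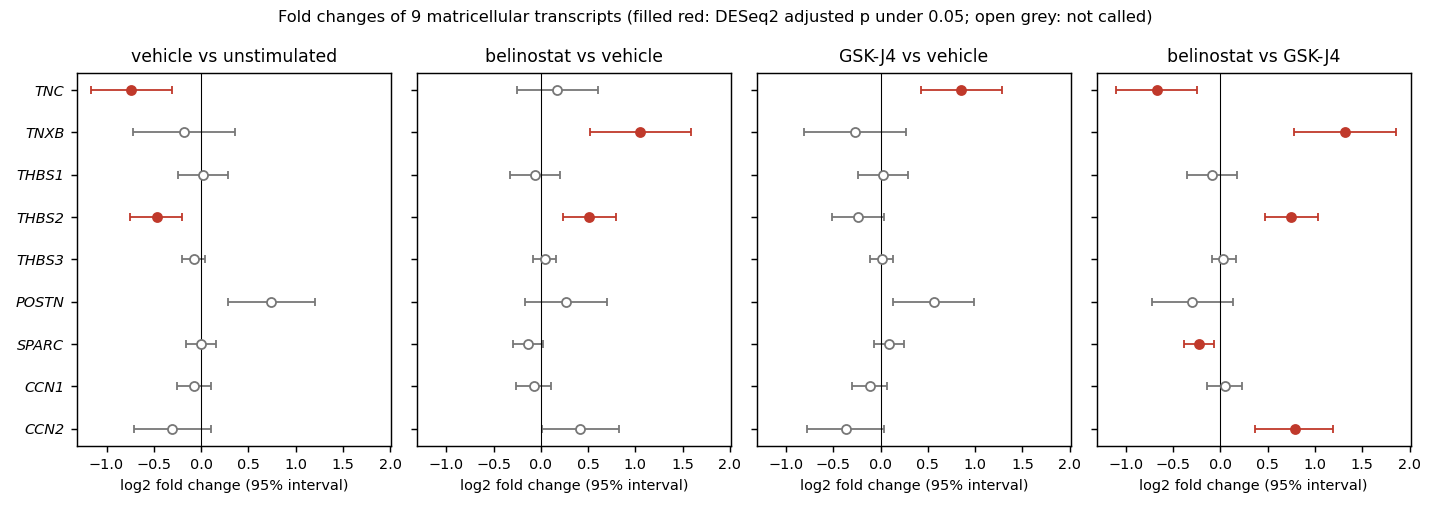
Log2 fold changes of 9 transcripts (horizontal axes, bars are 95% intervals from the DESeq2 standard error, n = 4 per group) in 4 comparisons, filled red where called. TNC is at -0.74 in vehicle and 0.85 under GSK-J4, TNXB is at 1.05 under belinostat, and 5 transcripts are called between the compounds.

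Against vehicle, TNXB and THBS2 were thus the members that rose under belinostat, 2 of 9 tested and none lower, where 6.26% of all genes were called. With all libraries no member separated there, where 11.4% of all genes had no overlap. Belinostat replicates 18 to 20 lay above every vehicle library for TNXB, THBS2 and CCN2. This split was read after replicate 17 had been seen to stand apart, and the share of all genes that show it was not counted. Without replicate 17 CCN2 was also called higher (0.60, DESeq2 adjusted p 0.000387), where 1127 of 13621 genes tested were called. With all libraries the members' median log2 fold change was 0.175, beside 0.003 over all genes. Between belinostat and GSK-J4, in a contrast with no vehicle library, 5 of 9 were called, TNXB, THBS2 and CCN2 higher and TNC and SPARC lower under belinostat. The background was high, at 12.2% of all genes, and the members' median was 0.032, beside 0.003. For 4 of these, all but CCN2, the libraries did not overlap, against 17.0% of all genes. In the same contrast 5 of 5 smooth muscle markers tested and 6 of 12 fibroblast markers were called lower under belinostat, and none of either higher, and their part in the members' results was not tested. Against vehicle, 2 of the smooth muscle and 3 of the fibroblast markers were lower under belinostat. Against unstimulated cells, 1 smooth muscle marker was higher and 2 were lower under belinostat. Of the fibroblast markers, 3 were higher and 1 lower there, where 10.3% of all genes were called. The comparisons of belinostat and of GSK-J4 with vehicle share the 4 vehicle libraries, so their values are given side by side only. The comparison of vehicle with unstimulated cells uses the same 4 libraries with the opposite sign. A fall of TNC or THBS2 there and a rise under a compound are therefore not independent results.

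The CCN proteins are small cysteine-rich regulators of adhesion and growth, and CCN2, known as connective tissue growth factor, is a mediator of fibrosis and a classic target of YAP, TAZ and TGF-beta. CCN2 (ENSG00000118523.6, chromosome 6, 131948176 to 131951372, minus strand), whose promoter with 3 GGAATG motifs is printed above, held 2832, 3874, 3498 and 3605 normalized counts in unstimulated libraries and 2657, 3152, 3390 and 1994 in vehicle libraries. These groups overlapped (log2 fold change -0.30, 95% interval -0.71 to 0.11). Belinostat libraries held 2251, 4211, 4582 and 3917, and GSK-J4 libraries 2045, 2116, 2123 and 2401. Replicates 18 to 20 of belinostat lay above every other library, while replicate 17 fell among those of GSK-J4.

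Between the compounds CCN2 was 0.78 higher under belinostat on the log2 scale (DESeq2 adjusted p 0.00281, SE 0.209), and was called under all 12 other fits, with changes of 0.67 to 0.96. Against vehicle neither compound passed the test with all libraries, at 0.42 for belinostat (adjusted p 0.297) and -0.37 for GSK-J4 (adjusted p 0.593). Without belinostat replicate 17 the first was 0.60 and was called (adjusted p 0.000387). Under GSK-J4, CCN2 was lower than in unstimulated cells by -0.67 (SE 0.209, adjusted p 0.0294), with no overlap. Leaving out a library ended that call for unstimulated replicate 2 (-0.61), 3 (-0.66) or 4 (-0.65) and for GSK-J4 replicate 21 (-0.64), 22 (-0.66) or 23 (-0.66). The groups' means ranked from 3740 ± 1030 under belinostat to 3452, 2798 and 2172 ± 157 under GSK-J4, and no neighbors in this order were called different.

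CCN1 (ENSG00000142871.18, chromosome 1, 85580761 to 85584589, plus strand), which encodes the related protein CYR61, did not follow CCN2. It was called in none of the 6 contrasts by DESeq2 or edgeR, and its unadjusted DESeq2 p was under 0.05 in 1 of them, GSK-J4 against unstimulated cells. Its libraries held between 3875 and 5587 normalized counts, and between the compounds its log2 fold change was 0.04 (95% interval -0.14 to 0.23) and 0.13 without belinostat replicate 17, where that of CCN2 was 0.78 (95% interval 0.37 to 1.19). The difference between these 2 genes was not tested.

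SPARC (ENSG00000113140.11, chromosome 5, 151661096 to 151686975, minus strand) averaged 44950 normalized counts in unstimulated cells, 45010 in vehicle, 40890 under belinostat and 48010 under GSK-J4. Belinostat libraries held 32256, 45059, 45309 and 40935 and GSK-J4 libraries 48305, 47117, 49355 and 47248, with no overlap. The change of -0.23 on the log2 scale between them (DESeq2 adjusted p 0.0431, SE 0.082) was small. Its call was lost under edgeR (-0.23), in the fit of only these groups (-0.23) and without belinostat replicate 17 (-0.13) or 20 (-0.23) or GSK-J4 replicate 21 (-0.23), 22 (-0.24), 23 (-0.22) or 24 (-0.24). The value without replicate 17 was the smallest of the 12.

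POSTN (ENSG00000133110.15, chromosome 13, 37562583 to 37598844, minus strand) was the member that stood highest in all 3 cytokine-pulsed groups relative to unstimulated cells, at low counts. Unstimulated libraries held 39.6, 36.0, 27.5 and 23.4 normalized counts, vehicle libraries 57.1, 47.0, 41.0 and 66.4, belinostat libraries 87.8, 63.5, 53.9 and 47.8, and GSK-J4 libraries 76.3, 77.8, 76.2 and 81.8. Each pulsed library lay above each unstimulated one. Against unstimulated cells POSTN rose by 1.01 on the log2 scale under belinostat (DESeq2 adjusted p 0.000588, SE 0.236) and by 1.30 under GSK-J4 (SE 0.232, adjusted p 2.54e-06), both under all 12 other fits.

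For vehicle the same difference was 0.74 (SE 0.237) and missed the threshold (DESeq2 adjusted p 0.0825). It passed without unstimulated replicate 1 (0.87, adjusted p 0.0471). GSK-J4 libraries of POSTN lay above all vehicle libraries, but the change of 0.56 (SE 0.218) was not called (adjusted p 0.235), and belinostat gave 0.26 (SE 0.222, adjusted p 0.663), which was 0.053 without replicate 17. The compounds differed by -0.30 (95% interval -0.72 to 0.13), and by -0.51 without that replicate (adjusted p 0.105).

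SPP1 (ENSG00000118785.15, chromosome 4, 87975667 to 87983532, plus strand) encodes osteopontin, a cytokine-like ligand of CD44 and integrins known from macrophages. It was listed at 0 in 5 of 16 libraries and reached at most 9.15 normalized counts, in GSK-J4 replicate 21. A change of SPP1 was not detectable at this depth, and it was tested only in the contrast of GSK-J4 with unstimulated cells (adjusted p 0.926).

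Set against unstimulated cells, 2 of 9 members were called under belinostat, TNXB and POSTN, both higher, where 10.3% of all genes were called. The libraries did not overlap for 1 of them, POSTN, against 12.3% of all genes. Under GSK-J4, 3 of 10 were called, POSTN higher and THBS2 and CCN2 lower, where 5.55% of all genes were called. For 4 members, these and SPARC, the libraries did not overlap, against 11.9% of all genes. The members' medians were -0.039 and -0.011 on the log2 scale, beside -0.001 and -0.008 over all genes. TNC and THBS2, the pair called lower in vehicle by DESeq2 with all libraries but not by edgeR, parted. TNC stood near the unstimulated level under GSK-J4 (3619 against 3348 normalized counts), and THBS2 stood near it under belinostat (3906 against 3801, log2 fold change 0.04, 95% interval -0.24 to 0.31, and 0.154 without belinostat replicate 17). Of the 2 leukocyte markers tested between belinostat and unstimulated cells, 1 was called. CD14, a receptor of monocytes and macrophages that fibroblasts also make, was higher, at 196 and 71.8 normalized counts (1.45 on the log2 scale, DESeq2 adjusted p 0.00109). In vehicle CD14 averaged 141. CD68, the other marker tested, averaged 257 under belinostat and 291 in unstimulated cells and was not called. PTPRC, which marks all leukocytes and was too low to be tested, averaged 2.33 and 0.714. The part of CD14 in the members' results was not tested.

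**Figure D3:**
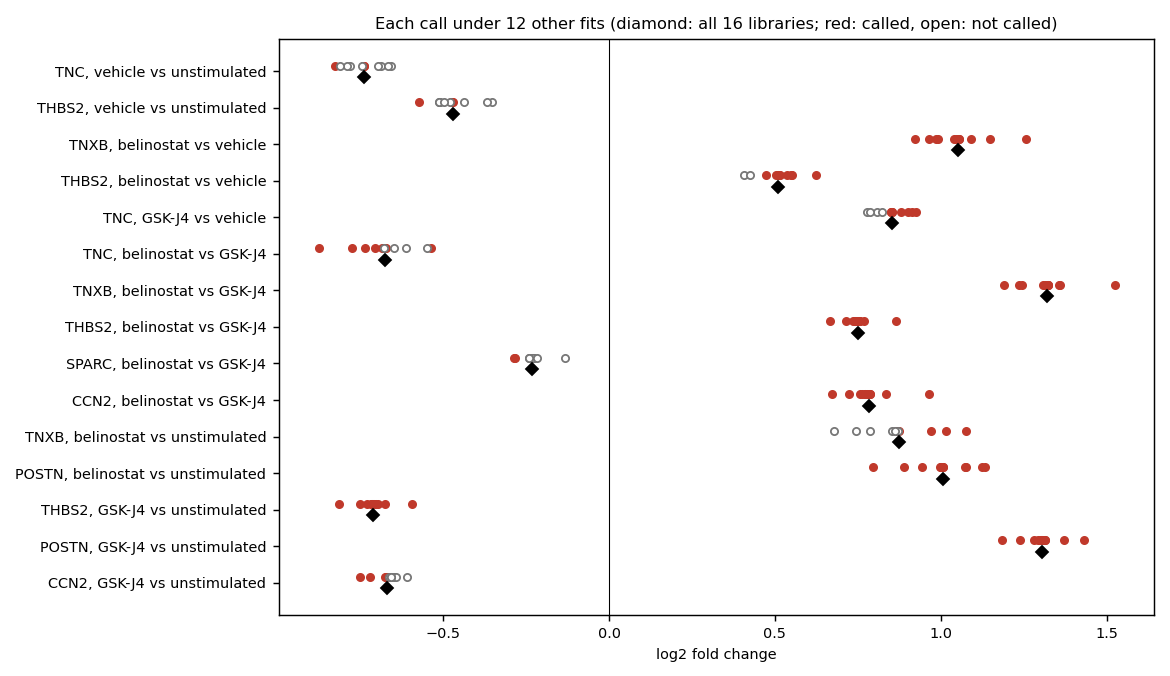
Log2 fold change (horizontal axis) of each of the 15 member calls with all 16 libraries (diamond) and under 12 other fits (circles, red where still called and open where not). The calls of TNXB, THBS2 and CCN2 between the compounds and of POSTN against unstimulated cells are red throughout, and those of TNC and THBS2 in vehicle are mostly open, with no change of direction in any row.

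Belinostat replicate 17 was outside the range of the 3 other belinostat libraries for all 9 members other than SPP1. It was above them for TNC, THBS3 and POSTN and below them for TNXB (761 against 1422 to 1743), THBS1, THBS2, SPARC, CCN1 and CCN2. On the log2 scale it differed from the mean of the others by 0.67 for TNC and POSTN, by -1.07 for TNXB, by -0.91 for CCN2 and by -0.69 for THBS1. For THBS3 the difference was only 0.09. How many of all genes had replicate 17 outside the range of the others was not counted, so the members cannot be set against that share. The total estimated counts of replicate 17, at a size factor of 1.05, were not low. The labels name no batch, and what sets this library apart was not tested.

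**Figure D4:**
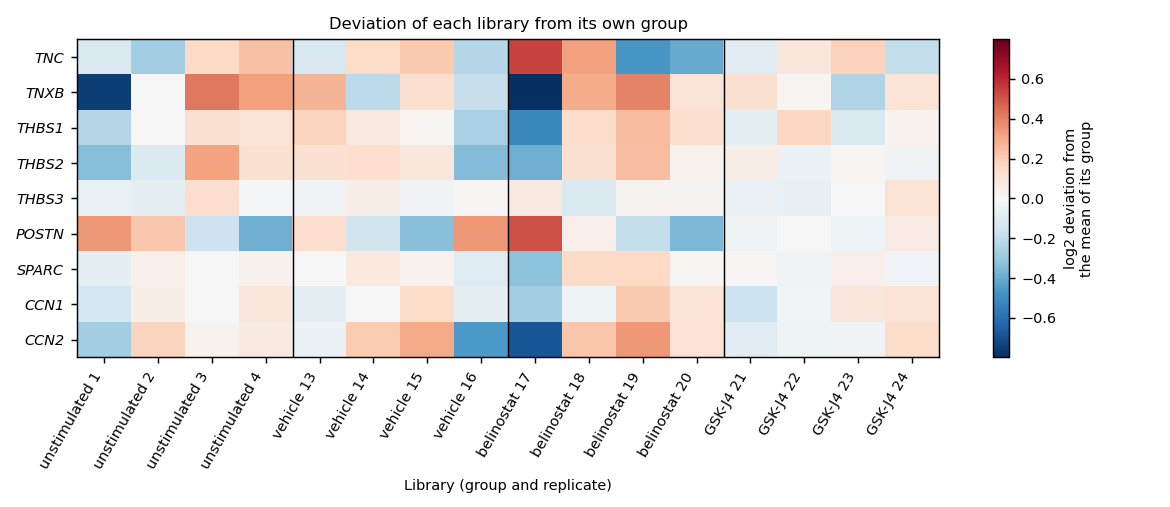
Deviation of each library (columns) from the log2 mean of its group for 9 transcripts (rows), red above and blue below. Belinostat replicate 17 is the column of deepest color, high for TNC and POSTN and low for TNXB, CCN2 and THBS1, and unstimulated replicate 1 is also low for TNXB.

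The genes whose levels ran most like a member over the 16 libraries were found among 11740 genes with a mean of at least 50 normalized counts, by Pearson's r of variance-stabilised values. The libraries share the group differences and replicate 17, so r is a description only. For TNC they were REPS1 (r = 0.846), RHNO1, DNMBP, RAPGEF1 and EZR (0.774), and within groups r ranged from 0.504 to 0.843 for the same genes. For CCN2 they were FSTL1 (0.948), PYGL, AMOTL2, FZD1 and STK38 (0.928). FSTL1, which encodes a follistatin-like relative of SPARC, and AMOTL2, a YAP target, are on the lists below. For THBS1 they were ARID5B (0.951), OLFML2B, CEMIP, TARS3 and LAMA4 (0.918), and for POSTN CA12 (0.928), PAICS, TNFRSF11B, RGS5 and MME (0.892). Within groups r ranged from 0.879 to 0.955 for the genes named for CCN2 and from 0.939 to 0.981 for those of THBS1. For those of POSTN it ranged from 0.419, for RGS5, to 0.831.

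Other genes of these pathways were read from 4 lists. YAP and TAZ are mechanically controlled coactivators, and of 21 tested target genes, CCN1 and CCN2 among them, 9 were higher and 1 lower under belinostat than under GSK-J4, where 12.2% of all genes were called. The median log2 fold change was 0.083, beside 0.003 over all genes. IGFBP3, which encodes a binding protein of insulin-like growth factors, averaged 9952 normalized counts under belinostat and 2236 under GSK-J4 (2.15 on the log2 scale, DESeq2 adjusted p 8.28e-19, SE 0.227). ANKRD1 was 1.45 higher (SE 0.433, adjusted p 0.00988), a call lost without belinostat replicate 20 (1.22), and TGFB2, a TGF-beta ligand, 0.86 higher (SE 0.116). NT5E went the other way, from 579 normalized counts under GSK-J4 to 323 under belinostat. Against vehicle 4 of the 21 were higher and none lower under belinostat (6.26% of all genes called), and none higher and 1 lower under GSK-J4 (1.92%). In vehicle, where 1.74% of all genes were called, only TGFB2 was, at 215 normalized counts against 86.3 in unstimulated cells (1.32, SE 0.126, adjusted p 3.32e-22). Against unstimulated cells 3 were higher and none lower under belinostat (10.3% of all genes called), and 2 higher and 3 lower under GSK-J4 (5.55%).

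Of 18 genes that TGF-beta induces in fibroblasts, 8 were lower and 3 higher under belinostat than under GSK-J4, 7 were not called, and the median was -0.216 against 0.003 over all genes, of which 12.2% were called. The list shares ACTA2 and collagen genes with the smooth muscle and fibroblast markers above, so its counts overlap with theirs. ACTA2, the smooth muscle actin of myofibroblasts, averaged 9990 and 20740 normalized counts (-1.05 on the log2 scale, DESeq2 adjusted p 1.11e-17, SE 0.115). Those higher included ELN, the gene of elastin, at 1.29 (SE 0.335), and SMAD7, an inhibitor of TGF-beta signaling, at 0.65 (SE 0.095). Against vehicle 3 were higher and 5 lower under belinostat, beside 6.26% of all genes called, and 4 higher and 1 lower under GSK-J4, beside 1.92%. In vehicle itself none of the 18 was called by DESeq2 or edgeR, with 2 at an unadjusted DESeq2 p under 0.05, and 1.74% of all genes were. Against unstimulated cells the counts were 2 higher and 3 lower under belinostat, beside 10.3%, and 4 higher and 1 lower under GSK-J4, beside 5.55%. CCN2, also a known TGF-beta target, was higher under belinostat than under GSK-J4 (0.78 on the log2 scale), the contrast in which ACTA2 was at -1.05. Between belinostat and vehicle or unstimulated cells CCN2 was not called with all libraries.

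**Figure D5:**
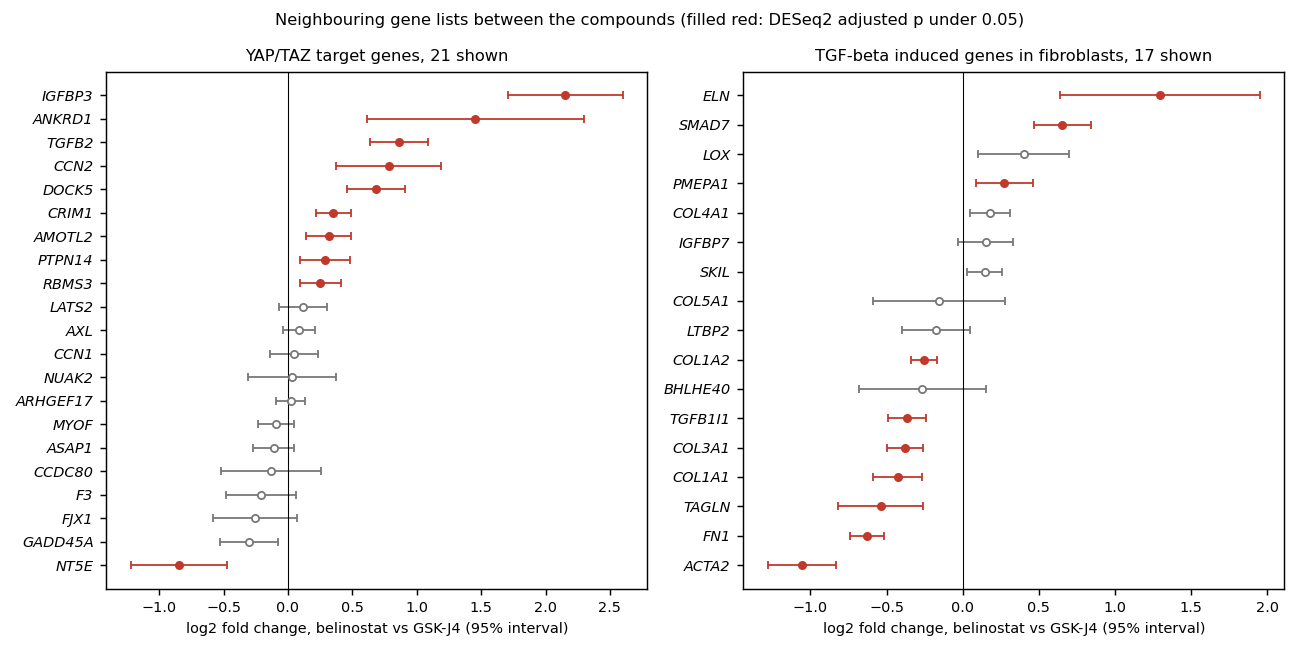
Log2 fold changes between belinostat and GSK-J4 (horizontal axes, bars are 95% intervals, n = 4 per group) of 21 YAP/TAZ target genes and 17 of the 18 TGF-beta induced genes (rows, in order of their value), filled red where called. IGFBP3 at 2.15 and ANKRD1 at 1.45 lead the first list and NT5E ends it, while ACTA2 at -1.05 is lowest in the second.

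Receptors for matricellular proteins were called in both directions between the compounds, 4 higher and 4 lower of 19 tested (median -0.105), beside 12.2% of all genes called. ITGB8, at low counts of 11.6 and 25.4, was lower under belinostat (-1.14, SE 0.338, DESeq2 adjusted p 0.00936), a call lost without GSK-J4 replicate 22 (-1.02). SDC1, which encodes syndecan 1, was at -0.77 (SE 0.131), and ITGA5, the fibronectin receptor chain, at -0.51 (SE 0.091). CD44, a hyaluronan and osteopontin receptor, was 0.45 higher under belinostat (SE 0.06, adjusted p 4.46e-12). Against vehicle 2 were higher and 2 lower under belinostat (all genes 6.26%) and 2 higher and 1 lower under GSK-J4 (all genes 1.92%), while none of 19 was called in vehicle by DESeq2 or edgeR, with 5 at an unadjusted DESeq2 p under 0.05 (all genes called 1.74%). Against unstimulated cells 1 was higher and 2 lower under belinostat (all genes 10.3%), and 4 higher and 3 lower of 20 under GSK-J4 (all genes 5.55%). TLR4, the receptor of tenascin C, stayed at 0 to 7.55 normalized counts in the 16 libraries, so a change of it was not detectable at this depth.

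Of 21 further matricellular genes, only 8 to 13 had enough counts to be tested in a contrast. FBLN1, the gene of fibulin 1, was lower under belinostat than in vehicle (-0.48, SE 0.094, DESeq2 adjusted p 2.87e-05), than under GSK-J4 (-0.67, SE 0.094) and than in unstimulated cells (-0.42, SE 0.094). CCN4, another CCN gene and a Wnt target, was higher than in unstimulated cells under belinostat (0.39, SE 0.079) and GSK-J4 (0.46, SE 0.079). In vehicle it was at 0.27 (adjusted p 0.0448), and edgeR (0.26) did not call it. Of 8 fits that left out a library, only that without vehicle replicate 16 did, while the others, without any unstimulated library (replicate 1 at 0.25, 2 at 0.27, 3 at 0.26, 4 at 0.29) or vehicle replicates 13 (0.28), 14 (0.26) and 15 (0.21), did not. FSTL1 was 0.29 higher under belinostat than under GSK-J4 (adjusted p 0.0194), but was not called under edgeR (0.29) or without belinostat replicate 18 (0.24), 19 (0.24) or 20 (0.28) or GSK-J4 replicate 22 (0.28) or 24 (0.27). SMOC1, a calcium-binding relative of SPARC, averaged 6.42 normalized counts in unstimulated cells, 32.9 in vehicle, 41.3 under belinostat and 85.7 under GSK-J4, where the medians were 6.04, 21.2, 12.1 and 81.8. Its rise under GSK-J4 was 3.74 on the log2 scale (SE 0.926, adjusted p 0.00233), and DESeq2 gave it no adjusted p, so no test, without GSK-J4 replicate 23 (3.58) or 24 (3.69). Under belinostat the change was 2.69 (adjusted p 0.0404) but 0.49 without replicate 17, and the call was lost there, under edgeR (2.71), in the fit of only the groups compared (2.68) and without unstimulated replicate 2 (2.45), 3 (2.67) or 4 (2.65). Over the list, 1 gene of 13 tested was higher and none lower in vehicle than in unstimulated cells (all genes called 1.74%), and none of 10 was higher and 1 lower under belinostat than in vehicle (6.26%). Between GSK-J4 and vehicle none of 8 tested was called by DESeq2 or edgeR, with 2 at an unadjusted DESeq2 p under 0.05 (1.92%). Between the compounds 1 of 12 was higher and 1 lower (12.2%). Against unstimulated cells 2 of 10 were higher and 2 lower under belinostat (10.3%), and 2 of 13 were higher and none lower under GSK-J4 (5.55%).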

How the data were processed

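RNA sequencing of 16 Ccd18-Co libraries was analysed from 1 table, with 0 columns left unused. Per the study's methods and the submitters' processing notes, the authors quantified reads with kallisto 0.48.0 (FastQC 0.11.9, MultiQC 1.14, build hg38) and deposited estimated counts per gene symbol, not scaled to library size; 28.0% of values had decimals. The transcriptome release was not given in the sources used here. Groups came from the labels; columns of unstimulated libraries read none where titles read DMSO, and were matched by number.

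Estimated counts were rounded to whole numbers. The 4 groups were fitted together with DESeq2 1.42.0 (R 4.3.3), by its Wald test with size factors from the median of ratios and no covariate besides group, and 6 contrasts were read, with Benjamini-Hochberg adjustment over all genes tested and calls at 0.05. Fold changes are log2 and unshrunken. The 12 other fits of each contrast were edgeR 4.0.16 (quasi-likelihood, TMM, 14415 genes), TMM factors in DESeq2, a filter of at least 10 counts in at least 4 libraries, only the groups compared, and each library left out. The same leave-one-out fits were applied to the list genes after their values were seen. Tests were checked on simulated data.

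The members, gene lists and tests were chosen with earlier results of these data known. Every member is named, up to 4 called genes per list and contrast with the largest change, and the 5 genes most like each of TNC, THBS1, POSTN and CCN2. Of the YAP/TAZ list, FOXF2 had no row. Of the TGF-beta list, 1 gene enters the counts and is not reported here by itself. Coordinates are GENCODE v44 on GRCh38, looked up by symbol, and may differ from the authors'. RefSeq start sites matched 9 of 10 members. Between replicates, the mean squared deviation over sampling noise was 2.97 to 31.6 (over genes with 40 counts or more summed over the libraries compared), so no library was counted as a duplicate. The table shows no molecular identifiers.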

Additional observations from a re-analysis of the deposited data

Results flagged for a closer look

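THBS2 in vehicle replicate 16 stood far below the rest of its group, at 2139 normalized counts where the other 3 vehicle libraries held 2893 to 2977. Its gap to the nearest library was 0.9 of the group's range, above Dixon's 95% critical value for 4 samples. This was the only one flagged among 40 groups of 4 libraries (10 members in 4 groups), where chance would flag about 2. Without this library the change of THBS2 against unstimulated cells was -0.37 and that of belinostat against vehicle 0.41, and neither was called by DESeq2 (adjusted p 0.28 and 0.0646).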

How the results depend on the processing

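Of 15 member calls, 7 were kept under all 12 other fits: TNXB between belinostat and vehicle, TNXB, THBS2 and CCN2 between the compounds, POSTN in both compound groups and THBS2 under GSK-J4 against unstimulated cells. How many of all called genes were kept under every fit was not counted. Under edgeR no member was called in vehicle against unstimulated cells (0, where 3 of 9 had an unadjusted p under 0.05), beside 166 of 14415 genes tested. In fits of only the groups compared, 3 members were called between the compounds, beside 1623 of 14598 genes tested. Between belinostat and unstimulated cells 1 was called, beside 876 of 14723. With a library left out, the number of members called ran from 0 to 2 in vehicle and from 1 to 3 under belinostat and 2 to 3 under GSK-J4 against unstimulated cells, from 1 to 3 for belinostat and 0 to 1 for GSK-J4 against vehicle, and from 3 to 5 between the compounds. Of all genes, those fits called 180 to 295 in vehicle, and 989 to 1836 under belinostat and 651 to 980 under GSK-J4 against unstimulated cells. Against vehicle they called 664 to 1127 for belinostat and 132 to 193 for GSK-J4, and between the compounds 1314 to 2136. Each fit tested between 13621 and 17164 genes. The cause was not tested.

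Directions turned only in members that were not called and lay near 0. SPARC in vehicle was at -0.004 under edgeR and -0.001 with TMM factors. With a library left out, the ranges of log2 fold changes that crossed 0 were -0.048 to 0.103 for THBS1 (vehicle vs unstimulated), -0.025 to 0.035 for SPARC (vehicle vs unstimulated), -0.063 to 0.156 for THBS2 (belinostat vs unstimulated), -0.021 to 0.088 for THBS1 (GSK-J4 vs unstimulated), -0.063 to 0.010 for THBS3 (belinostat vs unstimulated), -0.028 to 0.031 for THBS3 (GSK-J4 vs vehicle), -0.054 to 0.087 for THBS1 (GSK-J4 vs vehicle), -0.024 to 0.316 for TNC (belinostat vs vehicle), -0.149 to 0.079 for THBS1 (belinostat vs vehicle), -0.144 to 0.014 for CCN1 (belinostat vs vehicle), -0.174 to 0.053 for THBS1 (belinostat vs GSK-J4), -0.125 to 0.102 for THBS1 (belinostat vs unstimulated) and -0.029 to 0.130 for CCN1 (belinostat vs GSK-J4).

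Over all genes the counts called were less stable: edgeR gave 166 in place of 282 in vehicle and 91 in place of 253 for GSK-J4 against vehicle, and fits of only the groups compared gave 542 for the latter and 876 in place of 1461 for belinostat against unstimulated cells. GSK-J4 against vehicle also dropped to 132 without vehicle replicate 15, 137 without GSK-J4 replicate 23, 139 without vehicle replicate 14, 147 without GSK-J4 replicate 22 and 162 without GSK-J4 replicate 21, and vehicle against unstimulated cells to 180 without unstimulated replicate 2. Under edgeR the list counts that moved by over 1.5 times were 0 against 1 of the related matricellular genes (vehicle vs unstimulated), 2 against 4 of the receptors for matricellular proteins (belinostat vs vehicle), 5 against 8 of the TGF-beta induced genes in fibroblasts (belinostat vs vehicle), 1 against 3 of the receptors for matricellular proteins (GSK-J4 vs vehicle), 2 against 5 of the TGF-beta induced genes in fibroblasts (GSK-J4 vs vehicle), 1 against 2 of the related matricellular genes (belinostat vs GSK-J4) and 4 against 7 of the receptors for matricellular proteins (GSK-J4 vs unstimulated). In fits of only the groups compared the list counts that moved by over 1.5 times were 2 against 1 of the related matricellular genes (vehicle vs unstimulated), 2 against 4 of the receptors for matricellular proteins (belinostat vs vehicle), 2 against 0 of the related matricellular genes (GSK-J4 vs vehicle), 7 against 3 of the receptors for matricellular proteins (GSK-J4 vs vehicle), 3 against 1 of the YAP/TAZ target genes (GSK-J4 vs vehicle), 8 against 5 of the TGF-beta induced genes in fibroblasts (GSK-J4 vs vehicle), 6 against 2 of the related matricellular genes (GSK-J4 vs unstimulated) and 8 against 5 of the YAP/TAZ target genes (GSK-J4 vs unstimulated). No paired analysis was possible because the groups share no replicate numbers. Depth limits SPP1 and TLR4, at under 10 normalized counts.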
